A study of Mus musculus with 40 samples.

Results

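Plasma cell identity genes were followed in a mouse plasmacytoma line that was given PAX5 or altered PAX5. The genes were Prdm1, Xbp1, Sdc1, Ell2, Eaf2, Ly6c1, Derl3, Fkbp11, Pou2af1 and Creb3l2, and every probe set whose annotated symbol was exactly one of these names was taken. The rule gave 15 of 45037 probe sets, for 9 of the 10 genes. Sdc1 was matched by no probe set in the annotation used and was not analysed here.

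J558LuM is a plasmacytoma line from mouse, a tumour of antibody-secreting cells, and plasma cells normally lack PAX5. The 40 arrays measured total RNA of cells transduced with PAX5-WT, PAX5-G183S or PAX5-G183V (7 arrays each), with PAX5-P80R or PAX5-Δ2-6 (6 arrays each), or with MIR, the empty vector (7 arrays). The labels list no further treatment, all groups share the same cell line, and each array came from a transduction of its own. The spread behind every p-value is therefore that between repeated transductions, not between lines or animals. P80R lies in the paired domain of PAX5, which binds DNA, and G183S and G183V lie in the octapeptide motif, which binds co-repressors. For PAX5-Δ2-6 the labels hold no more than the name. The comparisons ask how far wild-type and altered PAX5 change expression in cells of this kind.

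The labels number the transductions and give 2 RNA isolation batches and 2 plates. PAX5-G183S, PAX5-WT and MIR carry numbers 34 to 44 and 58 to 66, while PAX5-G183V, PAX5-P80R and PAX5-Δ2-6 carry numbers 1 to 9 and 45 to 57, apart from PAX5-G183S replicate 4, which has number 45. All PAX5-P80R and PAX5-Δ2-6 arrays were on plate 2. Taken as 3 series (1 to 9, 34 to 44 and 45 to 66), the numbers put arrays of all 6 groups in the last series. A fit with these series in place of the isolation batches kept 38 of 44 member calls, lost 6 and added 5, which are named below. Within 45 to 66 the constructs also lie in different stretches, and a further split there was not fitted. PAX5-Δ2-6, with numbers in the same ranges as PAX5-G183V and PAX5-P80R, differed from MIR at 0 of 45037 probe sets, with 3180 at an unadjusted p under 0.05 (limma). With the 3 series in place of the isolation batches, 752 of 45037 were called for PAX5-Δ2-6 against MIR.

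When a B cell becomes a plasma cell, PAX5 is switched off and BLIMP-1, the product of Prdm1, shuts down the B cell programme. XBP1 then enlarges the secretory pathway so that the cell can fold and export antibody. ELL2 and its partner EAF2 act on transcription elongation, and ELL2 favours the secreted form of the immunoglobulin heavy chain. PAX5 is known to repress several genes of this programme in B cells.

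The 250 bases before the RefSeq starts of 4 members on mouse GRCm38.p6 are shown because Xbp1 and Ell2 moved together under 3 constructs and Derl3 and Fkbp11 moved together under PAX5-P80R. Each runs 5′ to 3′ on the strand of its gene. Capitals mark CCACG or CGTGG, the 5 letters at one end of the endoplasmic reticulum stress element on either strand.
Xbp1, chr11:5520391-5520640, plus strand: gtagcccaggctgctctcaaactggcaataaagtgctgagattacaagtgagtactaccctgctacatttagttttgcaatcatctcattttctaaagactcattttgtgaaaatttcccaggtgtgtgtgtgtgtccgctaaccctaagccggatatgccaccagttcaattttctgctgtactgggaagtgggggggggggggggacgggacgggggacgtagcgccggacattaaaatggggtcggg
Ell2, chr13:75707234-75707483, plus strand: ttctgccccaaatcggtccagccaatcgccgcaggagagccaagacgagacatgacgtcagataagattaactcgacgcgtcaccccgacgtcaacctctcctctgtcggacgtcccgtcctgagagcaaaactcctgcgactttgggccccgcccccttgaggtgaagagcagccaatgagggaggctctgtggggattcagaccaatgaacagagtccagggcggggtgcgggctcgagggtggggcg
Derl3, chr10:75893148-75893397, plus strand: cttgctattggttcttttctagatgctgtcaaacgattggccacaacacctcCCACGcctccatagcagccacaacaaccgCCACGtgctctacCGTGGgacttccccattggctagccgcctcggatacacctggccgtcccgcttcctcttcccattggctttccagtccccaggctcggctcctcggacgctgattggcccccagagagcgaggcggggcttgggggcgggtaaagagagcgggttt
Fkbp11, first start, chr15:98728199-98728448, minus strand: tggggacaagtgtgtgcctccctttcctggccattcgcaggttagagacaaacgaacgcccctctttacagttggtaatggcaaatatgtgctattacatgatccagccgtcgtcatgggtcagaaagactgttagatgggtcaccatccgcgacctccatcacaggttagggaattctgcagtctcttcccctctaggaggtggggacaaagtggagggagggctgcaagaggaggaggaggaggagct
Fkbp11, second start, chr15:98727628-98727877, minus strand: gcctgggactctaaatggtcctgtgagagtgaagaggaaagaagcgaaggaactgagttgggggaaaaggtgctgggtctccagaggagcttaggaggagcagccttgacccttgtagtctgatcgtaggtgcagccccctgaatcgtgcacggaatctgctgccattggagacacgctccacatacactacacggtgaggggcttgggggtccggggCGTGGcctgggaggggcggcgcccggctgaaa

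The Derl3 window held these 5 letters 3 times, the last of them on the other strand. The window of the second Fkbp11 start held them once, on the other strand, and the other 3 windows shown held none. Among all 14 windows of the 10 member genes, 5 held this motif, against 28.3% of 32851 mouse windows of the same length. Both strands were also searched for TGACGTG, the core of an XBP1 element, which 1 of the 14 windows held, that of Pou2af1, against 1.65% of all windows. The Pou2af1 match overlaps a match of the stress element motif. An octamer core, TTTGCAT, was in 0 of the 14, against 4.12% of all windows. Letters of a PAX5 site, GCGTGAC, were in 0 of the 14, against 1.78% of all windows. A BLIMP-1 core, GTGAAAG, was in 1 of the 14, against 3.57% of all windows. An ETS core, CCGGAA, was in 1 of the 14, against 12% of all windows. Both are windows of Eaf2, which has 3 starts, but of different starts. A match describes letters and is no measured site, and no match says only that the letters are not in the window.

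Every value below is a log2 signal on the RMA scale of the deposited table. A difference is the construct minus its reference from a limma fit with terms for plate and isolation batch, given with its standard error, and a probe set was called at a Benjamini-Hochberg adjusted p under 0.05 over all 45037 probe sets. Array medians lay between 4.21 and 4.27. In MIR arrays the plasma cell genes Jchain, which joins secreted antibody units, and Irf4, a plasma cell transcription factor, had medians of 12.45 and 10.75. The Pax5 probe set averaged 4.77 on PAX5-WT, 4.64 on PAX5-G183S, 4.88 on PAX5-G183V, 4.96 on PAX5-P80R and 5.14 on PAX5-Δ2-6 arrays, against 4.47 on MIR arrays. It was called higher than MIR under PAX5-P80R (0.61 ± 0.17, adjusted p = 0.035). Under PAX5-Δ2-6 the difference was larger in size and not called (0.80 ± 0.17, adjusted p = 0.35); whether it reads the constructs was not tested. Mean levels of the T cell, myeloid, fibroblast and erythroid lists (9, 11, 9 and 7 genes) ranged from 3.59 to 5.46 over all arrays. Of their genes, Cd6, a T cell surface protein, was called higher than MIR under PAX5-G183S, PAX5-G183V and PAX5-P80R, and Col3a1, a collagen, was called lower under PAX5-P80R than PAX5-WT. Their part in the results was not tested.

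Wild-type PAX5 and the 2 octapeptide changes lowered Ly6c1, Xbp1, Ell2 and Eaf2. Under PAX5-P80R Eaf2 was called lower and Derl3 and Fkbp11 higher, while Ly6c1, Xbp1 and Ell2 passed no test against MIR. Fkbp11 was also called higher under PAX5-G183V. The Derl3 call against MIR was lost in 12 of 24 alternative fits. PAX5-Δ2-6 left every member uncalled against MIR. Prdm1 was called by limma in 0 of the 11 comparisons made, and in 3 it had an unadjusted p under 0.05. The plot of differences from the empty vector sets the 5 constructs side by side.

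**Figure D1:**
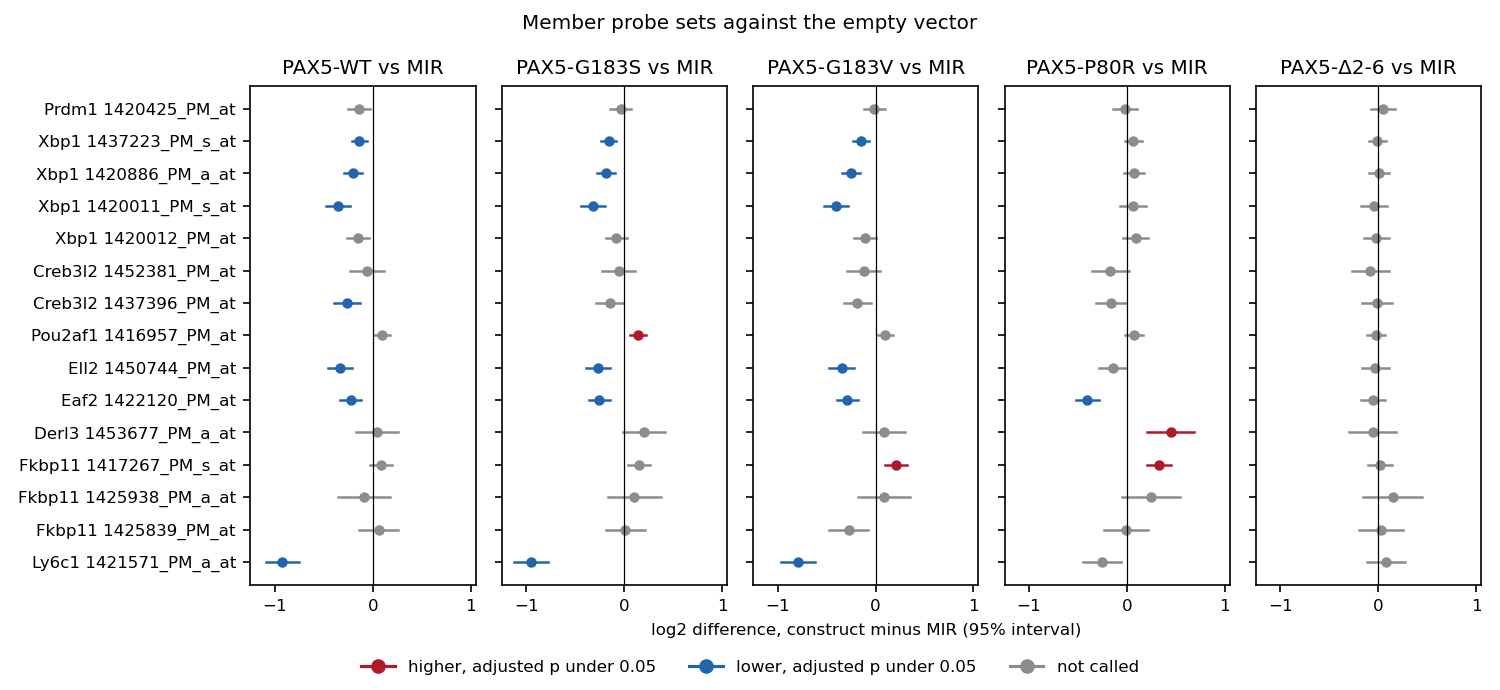
Log2 difference of each construct from MIR for the 15 probe sets, with points for estimates and lines for 95% intervals; blue is called lower, red called higher and grey not called. Ly6c1 lies lowest under PAX5-WT (-0.92), PAX5-G183S (-0.95) and PAX5-G183V (-0.80), and no point is coloured under PAX5-Δ2-6.

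Against MIR, PAX5-WT lowered 7 of the 15 probe sets and raised 0, where 1.69% of all probe sets were called lower, 2.18% higher and 3.86% either way. PAX5-G183S lowered 6 and raised 1, where 1.48% of all were called lower, 2.25% higher and 3.73% either way. PAX5-G183V lowered 6 and raised 1, where 2.43% of all were called lower, 3.3% higher and 5.73% either way. PAX5-P80R lowered 1 and raised 2, where 1.33% of all were called lower, 1.23% higher and 2.56% either way. For PAX5-Δ2-6 limma called 0 members and 0% of all probe sets, and 0 of the 15 had an unadjusted p under 0.05. Median differences over the 15 were -0.14, -0.08, -0.15, 0.06 and -0.02 in the same order, against medians over all probe sets between -0.0013 and 0.0032. Every array of the construct lay below every MIR array at 1 of the 15 under PAX5-WT (0.597% of all probe sets), at 3 under PAX5-G183S (0.535%), at 5 under PAX5-G183V (0.739%) and at 1 under PAX5-P80R (0.637%). Every array lay above MIR at 1 under PAX5-G183V (1.07%) and at 1 under PAX5-P80R (0.893%). The called probe sets of PAX5-WT, PAX5-G183S, PAX5-G183V and PAX5-P80R belong to 5, 5, 5 and 3 genes. The shares of all probe sets include 15588 that name no gene, and the members were chosen with earlier results of these data known. The counts are therefore given as a description. The 5 comparisons share the 7 MIR arrays. Fewer cells that carry a transcript and less of it per cell cannot be told apart in RNA from whole cultures.

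Among the regulators, Prdm1, which encodes BLIMP-1, passed no test. It read 8.68 to 9.17 on PAX5-WT arrays (median 8.81), 8.74 to 9.40 on PAX5-G183S arrays (9.05) and 8.87 to 9.17 on PAX5-G183V arrays (9.09), against 8.89 to 9.19 on MIR arrays (8.94). PAX5-P80R arrays read 8.88 to 9.14 (9.03) and PAX5-Δ2-6 arrays 8.81 to 9.39 (9.09). All groups overlapped. The difference from MIR was largest in size under PAX5-WT, at -0.14 ± 0.05 (adjusted p = 0.17, 95% interval -0.25 to -0.03). Against PAX5-WT, Prdm1 under PAX5-Δ2-6 was 0.19 ± 0.06 above (adjusted p = 0.059), and it was called without PAX5-WT replicate 6 (0.21, adjusted p = 0.037) or PAX5-Δ2-6 replicate 2 (0.22, adjusted p = 0.030). Prdm1 was 0.29 ± 0.03 higher in isolation batch 2 than in batch 1 (adjusted p = 8.4e-09).

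Xbp1, which drives expansion of the secretory pathway, is described first at 1420011_PM_s_at, which is not its brightest probe set and showed its largest falls. There Xbp1 fell by 0.36 ± 0.06 on the log2 scale under PAX5-WT (adjusted p = 8.7e-05). It fell by 0.32 ± 0.06 under PAX5-G183S (adjusted p = 0.00051) and by 0.40 ± 0.06 under PAX5-G183V (adjusted p = 1.4e-05). These amount to signals 0.78, 0.80 and 0.76 times those of MIR. Arrays of PAX5-WT read 11.49 to 11.96 (median 11.73), those of PAX5-G183S 11.61 to 11.87 (11.80) and those of PAX5-G183V 11.38 to 11.88 (11.72), against 11.95 to 12.20 for MIR (12.13). Every PAX5-G183S and PAX5-G183V array lay below every MIR array, and the PAX5-WT range overlapped MIR. PAX5-P80R arrays read 12.01 to 12.16 (12.08) and PAX5-Δ2-6 arrays 11.89 to 12.03 (11.98), and both overlapped MIR. In isolation batches 1 and 2 alone the differences from MIR were -0.39 and -0.31 under PAX5-WT, -0.40 and -0.27 under PAX5-G183S and -0.24 and -0.54 under PAX5-G183V.

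The other 3 Xbp1 probe sets gave smaller differences. The brightest, 1437223_PM_s_at, was 0.14 ± 0.04, 0.16 ± 0.04 and 0.15 ± 0.04 below MIR under PAX5-WT, PAX5-G183S and PAX5-G183V. Its calls (adjusted p = 0.029, 0.011 and 0.015) are the weakest of the 3 probe sets that were called there, and that of PAX5-WT was lost in 11 of 25 alternative fits. Leaving out MIR replicate 2, 5 or 7 or PAX5-WT replicate 2, 3 or 7 ended it, with values of -0.14 to -0.13. Within isolation batches 1 and 2 this probe set was -0.13 and -0.155 from MIR under PAX5-WT and -0.18 and -0.15 under PAX5-G183S. Under PAX5-G183V it was -0.07 and -0.21. For 1420886_PM_a_at the falls were 0.21 ± 0.04, 0.18 ± 0.04 and 0.25 ± 0.04 (adjusted p = 0.0029, 0.0097 and 0.00030). The fourth, 1420012_PM_at, was 0.15, 0.08 and 0.11 below MIR and was not called (adjusted p = 0.14, 0.55 and 0.28). The 4 probe sets span a range of mean signal from 7.52 to 13.2, and none was tested for the spliced and unspliced forms of the transcript.

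Xbp1 under PAX5-P80R was 0.06 to 0.09 above MIR over its 4 probe sets, with adjusted p from 0.57 to 0.77. Set against PAX5-WT, all 4 were higher under PAX5-P80R, by 0.20 ± 0.04, 0.27 ± 0.05, 0.42 ± 0.07 and 0.24 ± 0.06 from the brightest to the dimmest (adjusted p = 0.0025, 0.00042, 7.3e-05 and 0.016). Every PAX5-P80R array lay above every PAX5-WT array at 3 of the 4. PAX5-Δ2-6 was called higher than PAX5-WT at 2 of the 4, by 0.21 ± 0.05 and 0.31 ± 0.07 (adjusted p = 0.0074 and 0.0027). With the 3 transduction series in the fit these 2 values were 0.13 and 0.19 and not called (adjusted p = 0.17 and 0.10), and the dimmest probe set was 0.19 higher under PAX5-P80R than PAX5-WT (adjusted p = 0.12).

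Creb3l2 encodes a membrane-bound transcription factor of the CREB3 family that acts in secretory cells. Its brighter probe set, 1452381_PM_at, was called in 0 of the 11 comparisons, with 0 unadjusted p under 0.05, and differed from MIR by -0.17 to -0.06. In isolation batches 1 and 2 alone this probe set was 0.12 and -0.31 from MIR under PAX5-G183V, called in batch 2 (adjusted p = 0.033). It was -0.06 and -0.31 from MIR under PAX5-P80R, and between -0.13 and 0.03 in either batch under the other constructs. With the 3 transduction series in the fit it was called lower than MIR under PAX5-G183V (-0.30, adjusted p = 0.012) and PAX5-P80R (-0.37, adjusted p = 0.0070), and lower under PAX5-P80R than PAX5-WT (-0.31, adjusted p = 0.027). The other, 1437396_PM_at, read 7.55 to 7.97 on PAX5-WT arrays (median 7.82), against 7.87 to 8.18 on MIR arrays (8.04). It fell by 0.26 ± 0.07 (adjusted p = 0.015), with overlapping groups. Within isolation batches the difference was -0.39 in batch 1 and -0.09 in batch 2, and without PAX5-WT replicate 4 it was -0.22 (adjusted p = 0.060). Under PAX5-G183V it was called lower than MIR with the 3 series in the fit (-0.25, adjusted p = 0.027). The 2 probe sets of Creb3l2 thus differ in their calls, and the difference between them was not tested.

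Pou2af1 encodes OBF-1, a B cell co-activator that joins octamer-binding proteins and also serves plasma cells. It read 12.39 to 12.48 on PAX5-G183S arrays (median 12.43), against 12.22 to 12.39 on MIR arrays (12.28). The rise of 0.14 ± 0.04 was called at adjusted p = 0.034, and the groups overlapped at their edges. Under PAX5-WT, PAX5-G183V and PAX5-P80R it was 0.10, 0.10 and 0.08 above MIR with adjusted p from 0.17 to 0.50. The call was lost in 14 of 25 alternative fits, including those without MIR replicate 1, 3, 4, 5 or 6 or PAX5-G183S replicate 2, 4 or 6, which gave 0.13 to 0.15 with adjusted p from 0.050 to 0.078.

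**Figure D2:**
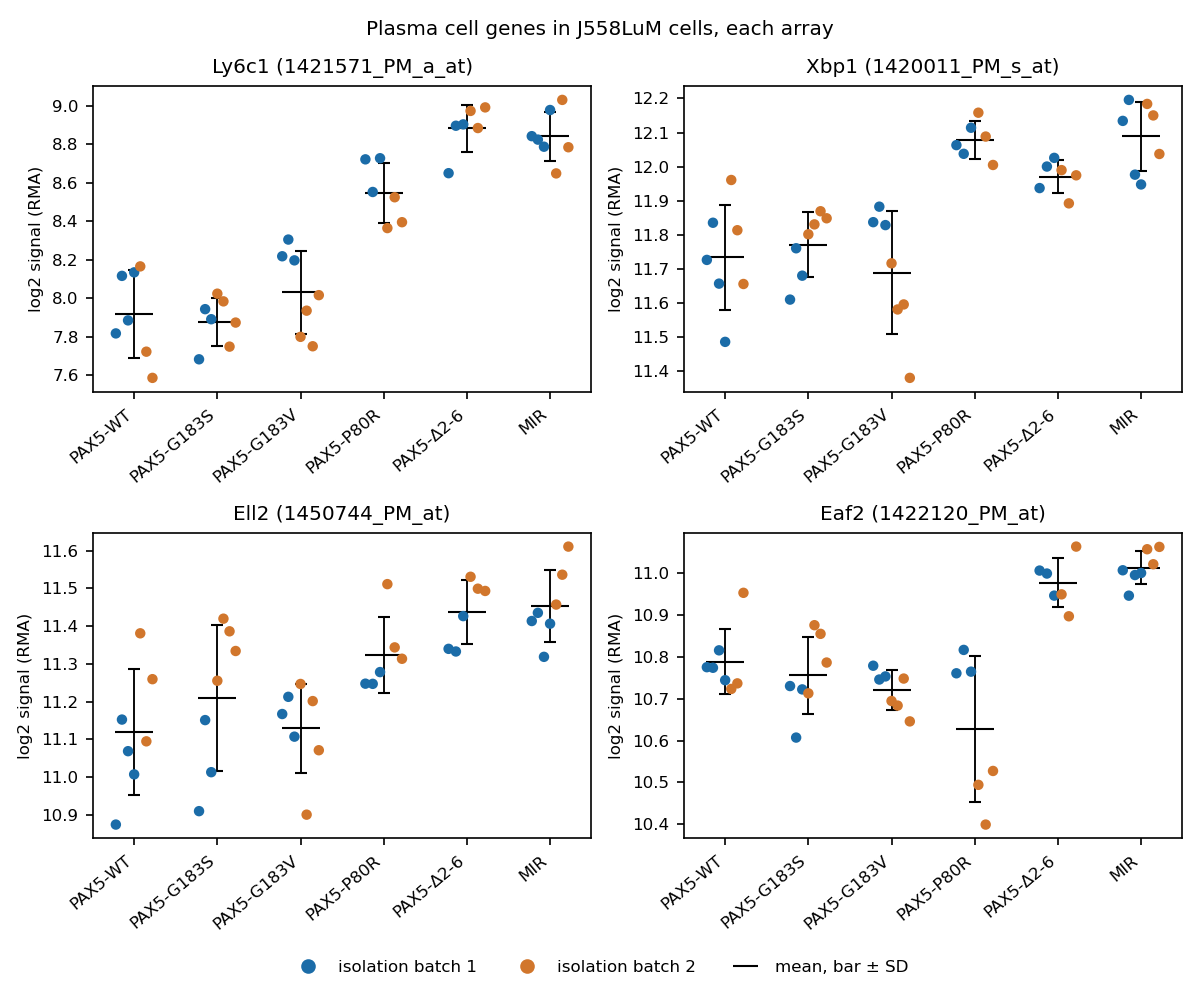
Log2 signal of Ly6c1, Xbp1 (1420011_PM_s_at), Ell2 and Eaf2 on each array by construct, with isolation batch by colour and a bar for the mean ± SD of each group. In the Ly6c1 panel the PAX5-WT, PAX5-G183S and PAX5-G183V arrays, at 7.59 to 8.31, all lie under the MIR arrays, at 8.65 to 9.03, and the PAX5-P80R arrays, at 8.36 to 8.73, overlap the lower end of MIR.

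Ell2, the elongation factor that raises output of secreted heavy chain, fell under the same 3 constructs. Its arrays read 10.87 to 11.38 for PAX5-WT (median 11.09), 10.91 to 11.42 for PAX5-G183S (11.26) and 10.90 to 11.25 for PAX5-G183V (11.17), against 11.32 to 11.61 for MIR (11.44). The PAX5-G183V arrays all lay below MIR, and the other 2 groups overlapped it. Differences were -0.33 ± 0.06 (adjusted p = 0.00034), -0.27 ± 0.06 (adjusted p = 0.0060) and -0.35 ± 0.06 (adjusted p = 0.00022). On PAX5-P80R arrays Ell2 read 11.25 to 11.51 (11.30), a difference of -0.15 ± 0.07 that was not called (adjusted p = 0.34). PAX5-Δ2-6 arrays read 11.33 to 11.53 (11.46), close to MIR at -0.03 ± 0.07. Ell2 was also 0.15 ± 0.04 higher in isolation batch 2 than in batch 1 (adjusted p = 0.0025), a difference that the fit takes out. In batches 1 and 2 alone the differences from MIR were -0.37 and -0.29 under PAX5-WT, -0.37 and -0.19 under PAX5-G183S and -0.24 and -0.44 under PAX5-G183V.

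Eaf2, the ELL partner, fell under 4 constructs. In the fit with plate and isolation batch it was the only member called lower than MIR under PAX5-P80R. It read 10.72 to 10.95 under PAX5-WT (median 10.77), 10.61 to 10.88 under PAX5-G183S (10.73) and 10.65 to 10.78 under PAX5-G183V (10.75), against 10.95 to 11.06 under MIR (11.01). PAX5-P80R arrays read 10.40 to 10.82 (10.64), all below MIR. Differences were -0.22 ± 0.05, -0.25 ± 0.05, -0.29 ± 0.05 and -0.40 ± 0.06, with adjusted p = 0.0071, 0.0020, 0.00036 and 2.0e-05. The PAX5-G183S, PAX5-G183V and PAX5-P80R arrays did not overlap MIR, and 6 of 7 PAX5-WT arrays lay below it. On PAX5-Δ2-6 arrays Eaf2 read 10.90 to 11.06 (10.97), with a difference of -0.05 ± 0.06 (adjusted p = 0.89).

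The fall of Eaf2 under PAX5-P80R differed between isolation batches. It was -0.22 ± 0.06 in batch 1 and -0.61 ± 0.08 in batch 2, and with plate in the fit the batches differed by -0.37 ± 0.08 (adjusted p = 0.036), in a test that called 0.309% of all probe sets. No other member passed that test under PAX5-P80R, and no member did under the other 4 constructs, where it called 0.00666% (PAX5-WT), 0% (PAX5-G183S), 0.415% (PAX5-G183V) and 0.0622% (PAX5-Δ2-6) of all. The falls under PAX5-WT, PAX5-G183S and PAX5-G183V were -0.21 and -0.24, -0.30 and -0.25, and -0.23 and -0.36 in batches 1 and 2. All 6 PAX5-P80R arrays lay below every PAX5-Δ2-6 array as well, at -0.35 ± 0.06 (adjusted p = 0.00015), in a comparison among cultures of the same ranges of transduction numbers and the same plate. Against PAX5-WT the difference was -0.18 ± 0.06 and missed the threshold (adjusted p = 0.078, 95% interval -0.30 to -0.06). It was called without PAX5-P80R replicate 1, 2 or 3, at -0.22 to -0.21, and with the 3 transduction series in the fit, at -0.29 (adjusted p = 0.0012).

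**Figure D3:**
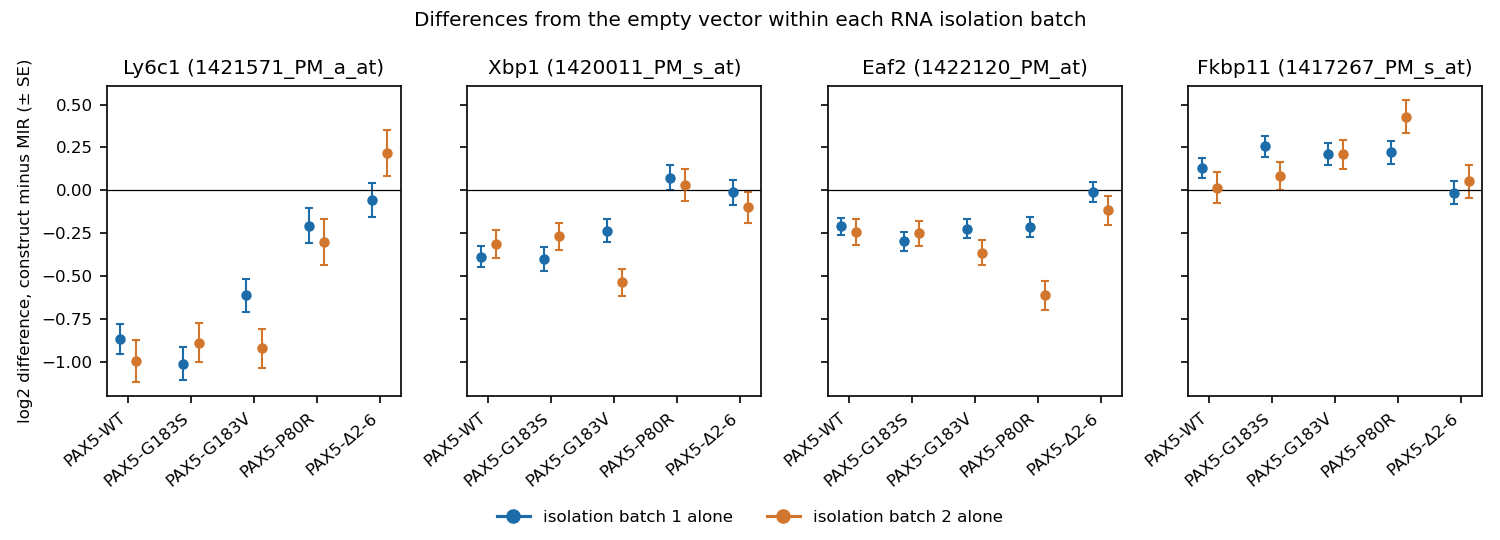
Log2 difference of each construct from MIR in isolation batch 1 alone and isolation batch 2 alone for Ly6c1, Xbp1 (1420011_PM_s_at), Eaf2 and Fkbp11 (1417267_PM_s_at), with bars of ± 1 standard error. The Eaf2 points of PAX5-P80R stand farthest apart within that panel, at -0.22 and -0.61.

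The 2 members of the secretory pathway rose under PAX5-P80R. Derl3 encodes a derlin, a membrane protein that helps to remove misfolded proteins from the endoplasmic reticulum. It read 5.88 to 6.57 on PAX5-P80R arrays (median 6.34), against 5.61 to 6.13 on MIR arrays (5.74), 5.58 to 5.99 on PAX5-WT arrays (5.82) and 5.53 to 5.94 on PAX5-Δ2-6 arrays (5.75). In each of the 3 comparisons 4 of 6 PAX5-P80R arrays lay above every array of the other group, and the lowest overlapped. The rise was 0.45 ± 0.12 over MIR (adjusted p = 0.029), 0.40 ± 0.12 over PAX5-WT (adjusted p = 0.041) and 0.51 ± 0.11 over PAX5-Δ2-6 (adjusted p = 0.0086). PAX5-G183S arrays spanned 5.71 to 6.41 (6.04) and PAX5-G183V arrays 5.57 to 6.10 (5.87), with differences from MIR of 0.20 ± 0.11 and 0.08 ± 0.11 (adjusted p = 0.37 and 0.74).

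Derl3 was close to the threshold. Its call against MIR was lost in 12 of 24 alternative fits, over which the difference ran from 0.28 to 0.70, and that against PAX5-WT in 13 of 24. Leaving out MIR replicate 3, 4 or 5, or PAX5-P80R replicate 1, 3, 5 or 6, ended the first call, with values of 0.39 to 0.44. Leaving out PAX5-WT replicate 1, 3, 4, 6 or 7, or PAX5-P80R replicate 1, 3, 5 or 6, ended the second, with values of 0.34 to 0.43. The call against PAX5-Δ2-6 was lost in 3 of 23. With the 3 transduction series in the fit Derl3 was 0.28 above MIR (adjusted p = 0.25) and 0.24 above PAX5-WT (adjusted p = 0.34), neither of them called. In isolation batches 1 and 2 alone the PAX5-P80R values were 0.54 and 0.30 against MIR, 0.51 and 0.24 against PAX5-WT and 0.44 and 0.57 against PAX5-Δ2-6.

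Fkbp11, a peptidyl-prolyl isomerase of the secretory pathway, rose at its brightest probe set, 1417267_PM_s_at. PAX5-G183V arrays read 10.45 to 10.62 (median 10.55) and PAX5-P80R arrays 10.46 to 10.81 (10.63), against 10.18 to 10.41 on MIR arrays (10.36). Both groups lay wholly above MIR, and the differences were 0.21 ± 0.05 (adjusted p = 0.016) and 0.33 ± 0.06 (adjusted p = 0.00088). Under PAX5-WT the probe set read 10.33 to 10.54 (10.42) and under PAX5-G183S 10.23 to 10.65 (10.51), and neither was called (0.08 ± 0.05, adjusted p = 0.57, and 0.15 ± 0.05, adjusted p = 0.12). The PAX5-G183S value rested on replicate 7, the lowest array, without which it was 0.20 (adjusted p = 0.011). PAX5-P80R was also higher than PAX5-WT by 0.24 ± 0.06 (adjusted p = 0.013; 0.22 and adjusted p = 0.056 without PAX5-WT replicate 7) and higher than PAX5-Δ2-6 by 0.31 ± 0.06 (adjusted p = 0.0013). In isolation batches 1 and 2 alone PAX5-P80R stood 0.22 and 0.43 above MIR and 0.09 and 0.41 above PAX5-WT, and PAX5-G183V stood 0.21 above MIR in both.

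The other 2 Fkbp11 probe sets were dim and were called in 0 of the 11 comparisons, with 1 and 3 unadjusted p under 0.05. 1425938_PM_a_at averaged 5.12 over all arrays, and 1425839_PM_at averaged 4.18, brighter than 62.5% and 49.1% of all probe sets. Under PAX5-P80R they stood 0.25 ± 0.15 and -0.01 ± 0.11 from MIR. Under PAX5-G183V 1425839_PM_at was 0.28 ± 0.10 below MIR (adjusted p = 0.094), against the direction of the bright probe set, and without MIR replicate 3 that value was -0.34 (adjusted p = 0.030). The rise of Fkbp11 thus rests on 1 of its 3 probe sets.

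**Figure D4:**
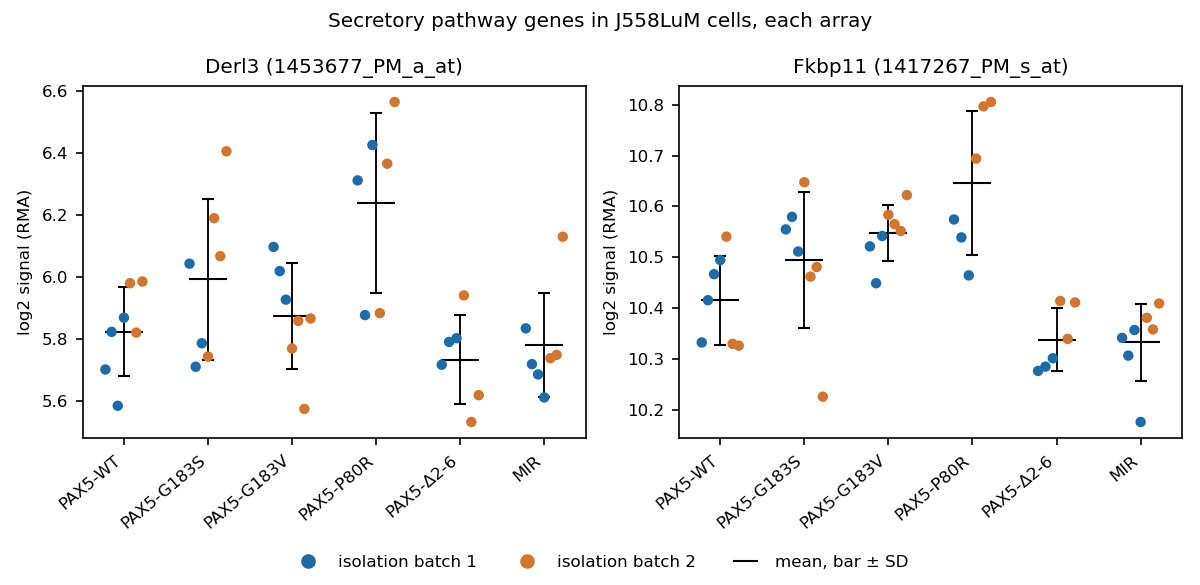
Log2 signal of Derl3 and Fkbp11 (1417267_PM_s_at) on each array by construct, with isolation batch by colour and a bar for the mean ± SD of each group. PAX5-P80R has the highest mean in both panels, 6.24 and 10.65, against 5.78 and 10.33 for MIR.

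Ly6c1, a GPI-anchored surface protein carried by mouse plasma cells, showed the largest differences from MIR of the 15 probe sets under PAX5-WT, PAX5-G183S and PAX5-G183V. Its arrays read 7.59 to 8.17 for PAX5-WT (median 7.89), 7.68 to 8.02 for PAX5-G183S (7.89) and 7.75 to 8.31 for PAX5-G183V (8.02), against 8.65 to 9.03 for MIR (8.82). All 21 arrays of these 3 constructs lay below all 7 of MIR. The signal fell by 47.3% under PAX5-WT (log2 -0.92 ± 0.08, adjusted p = 3.7e-10). Under PAX5-G183S it fell by 48.2% (log2 -0.95 ± 0.09, adjusted p = 2.6e-10), and under PAX5-G183V it fell by 42.4% (log2 -0.80 ± 0.09, adjusted p = 1.9e-08). In isolation batches 1 and 2 alone the differences were -0.87 and -1.0, -1.01 and -0.89, and -0.61 and -0.92 in the same order of constructs. Ly6c2, its near-identical neighbour, may share sequence with the probe set, and signals of the pair were not told apart here.

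On PAX5-P80R arrays Ly6c1 read 8.36 to 8.73 (median 8.54), above those 3 groups and overlapping MIR, with 4 of 6 arrays below every MIR array. It was 0.67 ± 0.10 above PAX5-WT (adjusted p = 1.1e-05), with all 6 arrays above all 7, and -0.26 ± 0.10 from MIR, which was not called (adjusted p = 0.18, 95% interval -0.45 to -0.06). PAX5-Δ2-6 arrays read 8.65 to 8.99 (8.90), 1.00 ± 0.10 above PAX5-WT (adjusted p = 8.8e-10) and 0.08 ± 0.10 from MIR (95% interval -0.11 to 0.27). PAX5-P80R lay 0.34 ± 0.09 below PAX5-Δ2-6 (adjusted p = 0.046). That last call was lost in 13 of 23 alternative fits, over which the value ranged from -0.52 to -0.15, among them those without PAX5-P80R replicate 2, 4, 5 or 6 or PAX5-Δ2-6 replicate 2, 3, 4, 5 or 6. In batches 1 and 2 alone it was -0.15 and -0.52. Group means were 7.88 for PAX5-G183S, 7.92 for PAX5-WT, 8.03 for PAX5-G183V, 8.55 for PAX5-P80R and 8.88 for PAX5-Δ2-6, against 8.84 for MIR. Of neighbours in that order, PAX5-G183S and PAX5-G183V were not called different from PAX5-WT, nor PAX5-P80R or PAX5-Δ2-6 from MIR. PAX5-P80R and PAX5-G183V, also neighbours, were not compared by a test.

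The octapeptide changes were set directly against wild type. For PAX5-G183S minus PAX5-WT limma called 0 of the 15 probe sets, 0 had an unadjusted p under 0.05, and 0.0333% of all probe sets were called. The Ly6c1 difference was -0.03 (95% interval -0.20 to 0.15), that of Xbp1 at 1420011_PM_s_at 0.04 (-0.08 to 0.16) and that of Ell2 0.07 (-0.06 to 0.19). For PAX5-G183V minus PAX5-WT limma called 0 of the 15, 3 had an unadjusted p under 0.05 and 0.0289% of all were called. There Ly6c1 differed by 0.13 (-0.04 to 0.30), Prdm1 by 0.13 (0.02 to 0.24) and Fkbp11 by 0.12 (0.01 to 0.23) at its brightest probe set and -0.34 (-0.53 to -0.14) at 1425839_PM_at. These intervals bound the differences and do not show that the constructs act alike. With the 3 transduction series in place of the isolation batches, the probe sets called for PAX5-G183V minus PAX5-WT went from 13 to 1178. For PAX5-G183S minus PAX5-WT they went from 15 to 22. No member was called in either comparison in that fit. The small share of all probe sets called for PAX5-G183V thus depends on which of these terms is fitted.

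PAX5-P80R minus PAX5-WT gave 7 probe sets higher and 0 lower among the 15, where 1.73% of all were called higher, 2.36% lower and 4.09% either way. These were the 4 of Xbp1, Derl3, the bright Fkbp11 probe set and Ly6c1. PAX5-Δ2-6 minus PAX5-WT gave 4 higher and 0 lower, where 1.69% of all were called higher, 2.58% lower and 4.27% either way. These were 2 of Xbp1, Ell2 (0.30 ± 0.07, adjusted p = 0.0044) and Ly6c1. With the 3 transduction series in the fit 1 call was left there, that of Ly6c1, and Ell2 was at 0.21 (adjusted p = 0.096). Creb3l2 at 1437396_PM_at narrowly missed there (0.25 ± 0.08, adjusted p = 0.050), and was called without PAX5-WT replicate 5 or 6 or without PAX5-Δ2-6 replicate 4. All PAX5-P80R arrays lay above all PAX5-WT arrays at 4 of the 15, against 0.806% of all probe sets. All PAX5-Δ2-6 arrays lay above all PAX5-WT arrays at 2 of the 15, against 0.848% of all, and below them at 1, Pou2af1, against 1.31% of all. Eaf2 was called higher there without PAX5-WT replicate 7 (0.21, adjusted p = 0.048).

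Comparisons of PAX5-G183V and PAX5-P80R with PAX5-Δ2-6 stay within the same ranges of transduction numbers. PAX5-G183V was lower at 5 of the 15 probe sets and higher at 0, where 1.02% of all were called lower, 2.06% higher and 3.08% either way. Ly6c1 was -0.87 ± 0.10 (adjusted p = 3.6e-08), Xbp1 -0.25 ± 0.05 and -0.36 ± 0.07 at 2 probe sets (adjusted p = 0.0014 and 0.00067), Ell2 -0.31 ± 0.07 (adjusted p = 0.0040) and Eaf2 -0.23 ± 0.06 (adjusted p = 0.018). At all 5 every PAX5-G183V array lay below every PAX5-Δ2-6 array, against 0.775% of all probe sets. Every array lay above at 2 that were not called, Pou2af1 and Fkbp11, against 1.21% of all. The Eaf2 call was lost without PAX5-G183V replicate 7 or PAX5-Δ2-6 replicate 6 (both -0.21), and Xbp1 at 1437223_PM_s_at was called without PAX5-Δ2-6 replicate 5 or PAX5-G183V replicate 3 (both -0.16). PAX5-P80R was higher at 2, Derl3 and Fkbp11, and lower at 2, Eaf2 and Ly6c1, where 1.1% of all were called higher, 0.675% lower and 1.78% either way. Fkbp11 lay wholly above and Eaf2 wholly below PAX5-Δ2-6, against 0.888% and 0.517% of all.

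Other plasma cell genes were measured for 13 of 18 in a list. Against MIR limma called 0 of them under PAX5-WT and 0 under PAX5-G183S, with 1 and 2 at an unadjusted p under 0.05. Under PAX5-G183V 2 were called lower and 1 higher, with 6 at an unadjusted p under 0.05. Under PAX5-P80R 1 was called lower and 0 higher, with 7 at an unadjusted p under 0.05. Of all probe sets 3.86%, 3.73%, 5.73% and 2.56% were called under PAX5-WT, PAX5-G183S, PAX5-G183V and PAX5-P80R. PAX5-G183V lowered Jchain (-0.63 ± 0.15, adjusted p = 0.0063) and Tnfrsf13b, the receptor TACI (-0.27 ± 0.08, adjusted p = 0.030), and raised Itm2c, a transmembrane protein (0.24 ± 0.07, adjusted p = 0.032). PAX5-P80R lowered Trp53inp1, a stress protein (-0.42 ± 0.09, adjusted p = 0.0057). The list medians against MIR were -0.06, -0.07, -0.02, 0.08 and -0.01 for PAX5-WT, PAX5-G183S, PAX5-G183V, PAX5-P80R and PAX5-Δ2-6. PAX5-Δ2-6 changed 0 of 13, with 3 at an unadjusted p under 0.05. In isolation batches 1 and 2 alone the PAX5-G183V values were -0.10 and -1.08 for Jchain, -0.03 and -0.48 for Tnfrsf13b and 0.07 and 0.39 for Itm2c, and the PAX5-P80R value of Trp53inp1 was -0.23 and -0.68. Against PAX5-WT, PAX5-P80R raised Txndc5 (0.21 ± 0.06, adjusted p = 0.029) and lowered Trp53inp1 (-0.31 ± 0.09, adjusted p = 0.048). PAX5-Δ2-6 raised Txndc5 there (0.22 ± 0.06, adjusted p = 0.017). Of all probe sets 4.09% and 4.27% were called for PAX5-P80R and PAX5-Δ2-6 against PAX5-WT.

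XBP1 targets of the secretory pathway were measured for 23 of 24 genes. Of all probe sets 3.86%, 3.73%, 5.73% and 2.56% were called against MIR under PAX5-WT, PAX5-G183S, PAX5-G183V and PAX5-P80R. PAX5-WT lowered 2 and raised 0 against MIR, namely Pdia4, a disulfide isomerase (-0.41 ± 0.06, adjusted p = 4.2e-06), and Edem1, which sends misfolded glycoproteins for disposal (-0.26 ± 0.04, adjusted p = 9.8e-05). PAX5-G183S lowered 3, Pdia4, Edem1 and Dnajb9, a chaperone partner, by 0.38 ± 0.06, 0.25 ± 0.04 and 0.17 ± 0.05 (adjusted p = 2.1e-05, 0.00034 and 0.042). PAX5-G183V lowered the same 3 and raised Hyou1, a chaperone (0.20 ± 0.04, adjusted p = 0.0036). PAX5-P80R lowered 0 and raised 2, Sec24d, a coat protein of export vesicles, and Sec61a1, of the translocation channel, by 0.27 ± 0.07 and 0.18 ± 0.05 (adjusted p = 0.023 and 0.032). Sec24d was 0.41 above MIR in isolation batch 1 and 0.08 in batch 2. The remaining 21, 20, 19 and 21 genes passed no test under these 4 constructs, and list medians lay between -0.01 and 0.03. In the same order 7, 7, 7 and 4 of the 23 had an unadjusted p under 0.05 (limma). PAX5-Δ2-6 changed 0 of 23, with 1 at an unadjusted p under 0.05.

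Of the same list, 4 genes were higher under PAX5-P80R than PAX5-WT and 0 lower: Pdia4, Sec61a1, Edem1 and Dnajb9, by 0.34 ± 0.06, 0.21 ± 0.05, 0.19 ± 0.05 and 0.18 ± 0.06 (adjusted p = 0.00067, 0.0054, 0.020 and 0.047). PAX5-Δ2-6 against PAX5-WT gave 2 higher, Pdia4 and Edem1, and 2 lower, Syvn1, a ubiquitin ligase of the endoplasmic reticulum, and Sec61b (adjusted p from 4.1e-05 to 0.015). For PAX5-P80R and PAX5-Δ2-6 against PAX5-WT, 1.73% and 1.69% of all probe sets were called higher and 2.36% and 2.58% lower.

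Transcription factors of B cells were measured for 16 of 17 genes in a list. Of all probe sets 2.18%, 2.25%, 3.3% and 1.23% were called higher than MIR under PAX5-WT, PAX5-G183S, PAX5-G183V and PAX5-P80R. Those called lower were 1.69%, 1.48%, 2.43% and 1.33% in the same order. Some were bright in the plasmacytoma cells without PAX5, Ikzf1 and Tcf3 among them, with medians of 10.67 and 9.33 on MIR arrays. PAX5-WT raised 3 and lowered 0 against MIR: Ets1 by 2.68 ± 0.20, Spib by 1.68 ± 0.28 and Ikzf1 by 0.35 ± 0.04 (adjusted p = 1.0e-12, 9.3e-05 and 2.7e-08). PAX5-G183S raised 5 and PAX5-G183V raised 5, each with 0 lower. Under PAX5-G183S the largest were Ets1 (1.79 ± 0.20), Spib (1.69 ± 0.28), Id3 (0.76 ± 0.18) and Irf8 (0.59 ± 0.17), with adjusted p up to 0.034. Under PAX5-G183V they were Ets1 (1.74 ± 0.20), Spib (1.34 ± 0.28), Id3 (1.00 ± 0.18) and Ikzf1 (0.31 ± 0.04), with adjusted p up to 0.0020. In isolation batches 1 and 2 alone the PAX5-G183V values were 0.50 and 2.00 for Spib and 0.25 and 1.57 for Id3. Those of Ets1 were 1.61 and 1.93, and those of Ikzf1 0.24 and 0.37. The PAX5-G183S values were 1.55 and 2.05 for Ets1 and 2.05 and 1.44 for Spib. For Id3 they were 0.90 and 0.66, and for Irf8 0.94 and 0.24. PAX5-P80R raised 3, Ets1, Pax5 and Ikzf1, and lowered Id3, an inhibitor of E proteins (-0.75 ± 0.20, adjusted p = 0.035). Whether the Pax5 probe set reads the construct was not tested. PAX5-Δ2-6 changed 0 of 16, with 1 at an unadjusted p under 0.05. The median over the list was 0.11, 0.08, 0.17, 0.06 and 0.00 for the 5 constructs in the same order.

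The genes most like each member were found by Pearson r over 40 arrays after plate and isolation batch were taken out, among 17096 other genes. These arrays share the 6 groups, so r reflects group levels as well as spread within groups, and it is given as a description. Ly6c1 was most like Asb9 (r = 0.91) and Slc16a5 (0.91). Asb9, an ankyrin repeat protein of ubiquitin ligases, was -3.53 ± 0.15, -3.42 ± 0.15, -3.36 ± 0.15, -2.01 ± 0.17 and -0.01 ± 0.17 from MIR under PAX5-WT, PAX5-G183S, PAX5-G183V, PAX5-P80R and PAX5-Δ2-6. Xbp1 was most like Slc39a14, a zinc transporter (0.90), and Basp1 (0.86), which fell by 0.48 ± 0.05 and 0.47 ± 0.07 under PAX5-WT. Ell2 was most like Chac2 (0.89) and Prkd2 (0.88), and Eaf2 most like Fut8 (0.88) and Nqo2 (0.87).

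Fkbp11 was most like Ifitm3, an interferon-induced membrane protein (0.84), and Ipmk (0.82). Ifitm3 was 0.91 ± 0.24, 1.31 ± 0.24, 1.67 ± 0.24, 2.52 ± 0.27 and 0.22 ± 0.27 above MIR under the 5 constructs, of which the last was not called (adjusted p = 0.91). Derl3 was most like Isoc2b (0.70) and Pla2g5 (0.69), Pou2af1 most like Ptpn22 (0.73) and Sbk1 (0.72), and Creb3l2 most like Mef2d (0.77) and Jchain (0.76). Prdm1 was most like Rccd1 (0.77) and Prc1 (0.74), a protein of dividing cells. Neither of these 2 was called against MIR under any construct.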

How the data were processed

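Biotin-labelled cRNA from total RNA of 40 cultures was measured on Affymetrix mouse arrays. The deposited table holds a log2 signal for each probe set on each array. RMA is the method that the submitters' processing notes name, and its software and version were not given in the sources used. No raw intensities were used, so a background or scaling step applied by the authors cannot be varied here. After 104 control probe sets were left out, 45037 were tested, of which 28898 name 1 gene, 551 several and 15588 none in the platform annotation. All 15 member probe sets were tested, with no filter on low values.

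Groups, replicate numbers, plates, isolation batches and transduction numbers were read from the labels. In R 4.3.3, lmFit and eBayes of limma 3.58.1 fitted terms for 6 groups, 2 plates and 2 isolation batches to all 40 arrays (32 residual degrees of freedom), two-sided, with Benjamini-Hochberg adjustment over all probe sets within each of 11 comparisons and a threshold of 0.05. Batch differences were tested as group by isolation batch terms. Precision is set by how many arrays there are, and the median SE of PAX5-WT minus MIR was 0.081. No 2 array columns were identical (highest r 0.9969). The procedure was tested on simulated data.

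All member probe sets are named, a gene being led by its brightest one. Xbp1 is the exception in the text and in the array and batch plots, which use 1420011_PM_s_at, where its falls were largest. Likeness was taken at the brightest probe set of each gene. Up to 4 called genes of largest change are named per list and comparison described, and the 2 genes most like each member. Members and lists were chosen with earlier results of these data known. Promoter windows (250 bases before each start, mouse GRCm38.p6) and gene positions are from RefSeq, and all 10 genes matched by symbol. Alternatives were no batch terms, single isolation batches, plate 2 alone, only the 2 groups compared, 3 transduction series (numbers 1 to 9, 34 to 44 and 45 to 66) in place of isolation batches, a replicate block, 1 probe set a gene, quantile normalization again, a filter on dim probe sets, trend and robust moderation, and each array left out.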

Additional observations from a re-analysis of the deposited data

Results flagged for a closer look

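In 4 of 90 probe set and group pairs the extreme array stood apart from the others of its group by Dixon's criterion; chance flags about 1 in 20 such groups. Ell2 read 11.51 on PAX5-P80R replicate 4, above the other arrays of that construct. Eaf2 read 10.95 on PAX5-WT replicate 7, the one PAX5-WT array that did not lie below all MIR arrays. Derl3 read 6.13 on MIR replicate 7, above the other MIR arrays. Ly6c1 read 8.65 on PAX5-Δ2-6 replicate 1, below the other arrays of that construct.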

How the results depend on the processing

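No called difference of a member changed sign under any alternative run, and no alternative moved the median of all probe sets by over 0.1. Array medians of 4.21 to 4.27 leave that median little room to move. The number of all probe sets called moved more. With the 3 transduction series it went from 0 to 752 for PAX5-Δ2-6 against MIR and from 13 to 1178 for PAX5-G183V against PAX5-WT. Values not called in either fit were not judged on their sign. The Ly6c1 calls of PAX5-WT, PAX5-G183S and PAX5-G183V against MIR, of PAX5-P80R and PAX5-Δ2-6 against PAX5-WT and of PAX5-G183V against PAX5-Δ2-6 were kept in all 24 or 25 fits each. Counts of called member probe sets that moved by over 1.5 times were as follows. Without batch terms PAX5-G183S against MIR gave 4. Isolation batch 1 alone gave, against MIR, 1 for PAX5-G183V and 0 for PAX5-P80R, then 4 for PAX5-P80R against PAX5-WT, and 1 for PAX5-G183V and 0 for PAX5-P80R against PAX5-Δ2-6. Isolation batch 2 alone gave 1 for PAX5-WT and 1 for PAX5-G183S against MIR, 3 for PAX5-P80R and 1 for PAX5-Δ2-6 against PAX5-WT, and 3 for PAX5-G183V against PAX5-Δ2-6. Plate 2 alone gave 3, 1, 2 and 1 for PAX5-WT, PAX5-G183S, PAX5-G183V and PAX5-P80R against MIR and 3 for PAX5-P80R against PAX5-WT. These fits hold fewer arrays. Only the 2 groups compared gave 0 when PAX5-P80R was set against MIR, 2 and 2 for PAX5-P80R and PAX5-Δ2-6 against PAX5-WT, and 1 and 2 for PAX5-G183V and PAX5-P80R against PAX5-Δ2-6. The 3 transduction series gave 1 for PAX5-Δ2-6 against PAX5-WT. With 1 probe set a gene, PAX5-WT against MIR and PAX5-P80R against PAX5-WT gave 4 each, of 9. The filter on dim probe sets gave 8 for PAX5-Δ2-6 against PAX5-WT, and trend and robust moderation gave 9 there and 8 for PAX5-G183V against PAX5-Δ2-6; the cause was not tested. Same-numbered arrays deviated from their group means with r from -0.20 to 0.19, and in 0 comparisons was every pair over 0.1, so numbers were not taken to pair arrays. The replicate block gave 2 and 1 for PAX5-P80R and PAX5-Δ2-6 against PAX5-WT and 2 for PAX5-G183V against PAX5-Δ2-6, and moved no other count by over 1.5 times; an array correlated best with its own number for 0 to 2 pairs a comparison. With each array left out in turn, counts against MIR were 6 to 7 for PAX5-WT, 6 to 8 for PAX5-G183S, 7 to 8 for PAX5-G183V, 2 to 3 for PAX5-P80R and 0 to 0 for PAX5-Δ2-6. Against PAX5-WT they were 0 to 0 for PAX5-G183S, 0 to 0 for PAX5-G183V, 5 to 8 for PAX5-P80R and 4 to 6 for PAX5-Δ2-6, and against PAX5-Δ2-6 they were 4 to 6 for PAX5-G183V and 3 to 4 for PAX5-P80R.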
